A study of Mus musculus with 13 samples.

Results

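The genes Lrp2, Cubn, Amn, Dab2, Clcn5 and Ctns encode a chain of proteins with which the proximal tubule takes filtered protein back from the urine. Their chromatin was described from the peaks that overlapped a gene body or the 2 kb upstream of it (mm10, GENCODE), which were 167 of the 300755 peaks measured by single nucleus ATAC sequencing (snATAC-seq, which marks DNA that a transposase can reach in each nucleus). Lrp2 held 43 of these peaks, Cubn 42, Amn 4, Dab2 52, Clcn5 22 and Ctns 4. The windows use no measured value, while the 6 genes were chosen with earlier results of these data known.

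The data came from whole mouse kidneys, with 2 samples labelled P0 (taken from newborn mice, 1 day old per the labels' protocol), 1 labelled P21 (3 weeks) and 2 labelled P56 (8 weeks). The P21 and P56 samples together formed the adult group, as in the study. No treatment, transgene or deletion is named in the labels of these samples, and their strain and sex are not given there. Nothing in the labels says that the samples of a stage came from separate mice, so the p-values below measure the spread between samples, which may be technical. In all, 28316 nuclei were held in 15 clusters, and the 13 cell types with 27652 nuclei were used: the proximal tubule in its convoluted (PCT) and straight (PST) segments, nephron progenitors (NP), podocytes (Podo), the loop of Henle (LOH), the distal convoluted (DCT) and connecting (CNT) tubules, principal (PC) and intercalated (IC) cells of the collecting duct, endothelium (Endo), immune cells (Immune) and a pair of stromal clusters (Stroma1 and Stroma2). Clusters deposited as PT and PT2 were read here as PCT and PST from the study's text, since no label pairs the names.

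The samples differed in depth. A median nucleus had 6203 and 6737 open peaks in the P0 samples, 4153 in the P21 sample, and 3371 and 6178 in the P56 samples. P56 sample 1 was the shallowest, with both P0 samples and P56 sample 2 well above it, and it lay below P56 sample 2 in most shares given here. The share of nuclei in which a peak was open is a level that depends on depth, whereas the log2 fold changes are differences in open calls scaled to the total of each sum, tested with edgeR's quasi-likelihood test on sums per sample and cell type (threshold: Benjamini-Hochberg adjusted p under 0.05). Values after ± are the SD over samples for shares, with n = 2 at P0 and n = 3 in adult, and the SE for log2 fold changes. Of the 22 pairs of cell type and marker gene that were checked, 21 had the marker's start peak most open in the named type or in another type it marks. The exception was Trpv5, at 2.04% of CNT and 7.28% of PST nuclei, and PST was also close to DCT at the start of Slc12a3 (34.6% and 36.4%). It was close to LOH at Umod (17% and 19.1%) and to NP at Cited1 (7.6% and 9.01%) as well. Slc34a1, a phosphate transporter of the proximal tubule, was open at its start in 35.8% ± 11.5 of PCT nuclei (SD, n = 5 samples). Between 2 libraries, 24 to 73 cell barcodes were shared, at most 1.22% of the smaller library, and doublets were not searched for.

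As background, megalin (Lrp2) and cubilin (Cubn) are large receptors on the brush border of the proximal tubule that bind albumin, vitamin carriers and many other filtered proteins. Cubilin has no membrane anchor of its own and reaches the surface with amnionless (Amn), and the adaptor Dab2 links the receptors to clathrin. The endosomal chloride and proton exchanger ClC-5 (Clcn5) serves the acidification of endosomes and is mutated in Dent disease, and cystinosin (Ctns) exports cystine from lysosomes and is mutated in cystinosis. Loss of these functions is known for a loss of small proteins in the urine.

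Across the 6 genes, 2 kinds of start were seen. The starts of Cubn and Amn, the upstream start of Dab2 and, less sharply, that of Lrp2 were open mostly in PCT and PST, whereas that of Ctns, the upstream start of Clcn5 and, at P0, a downstream start of Dab2 were open more widely. The 250 bases before 4 of these starts are shown on the strand of the gene, read from GRCm38.p6, because they set a pair of restricted starts (Cubn and the upstream start of Dab2) beside Lrp2 and the broad start of Dab2, and every CG is in capitals. They held 2, 1, 16 and 16 CG, respectively, at 39.6%, 36.4%, 66% and 56.8% G and C. Over the 32851 RefSeq starts of the same build, the 250 bases upstream had a median of 6 CG and 52.4% G and C, and 37.8% had 3 CG or fewer. The upstream sequences of Amn, Ctns and the upstream Clcn5 start held 11, 8 and 11 CG, and that of the downstream Clcn5 start held 3, so the number of CG did not follow the breadth of opening in each of the 8 starts.
Cubn chr2:13491877-13492126: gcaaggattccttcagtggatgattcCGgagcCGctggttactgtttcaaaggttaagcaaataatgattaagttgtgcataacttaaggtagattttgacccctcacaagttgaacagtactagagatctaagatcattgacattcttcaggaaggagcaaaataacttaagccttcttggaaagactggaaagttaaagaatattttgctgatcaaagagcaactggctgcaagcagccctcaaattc
Dab2 upstream chr15:6299538-6299787: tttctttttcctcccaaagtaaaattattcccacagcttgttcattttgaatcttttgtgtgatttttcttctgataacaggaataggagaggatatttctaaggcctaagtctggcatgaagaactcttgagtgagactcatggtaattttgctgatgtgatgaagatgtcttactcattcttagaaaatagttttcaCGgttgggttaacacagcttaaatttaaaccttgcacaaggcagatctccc
Lrp2 chr2:69586066-69586315: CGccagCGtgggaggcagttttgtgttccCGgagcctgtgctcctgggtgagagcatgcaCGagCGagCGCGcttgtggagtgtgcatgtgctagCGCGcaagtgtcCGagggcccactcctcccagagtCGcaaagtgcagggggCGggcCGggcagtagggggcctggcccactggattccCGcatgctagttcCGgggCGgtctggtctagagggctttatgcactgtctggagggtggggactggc
Dab2 downstream chr15:6386348-6386597: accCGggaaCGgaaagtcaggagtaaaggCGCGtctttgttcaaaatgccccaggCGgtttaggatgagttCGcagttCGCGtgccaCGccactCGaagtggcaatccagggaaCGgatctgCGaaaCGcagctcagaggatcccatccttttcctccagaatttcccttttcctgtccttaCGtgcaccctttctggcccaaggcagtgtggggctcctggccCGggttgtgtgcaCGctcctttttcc

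**Figure D1:**
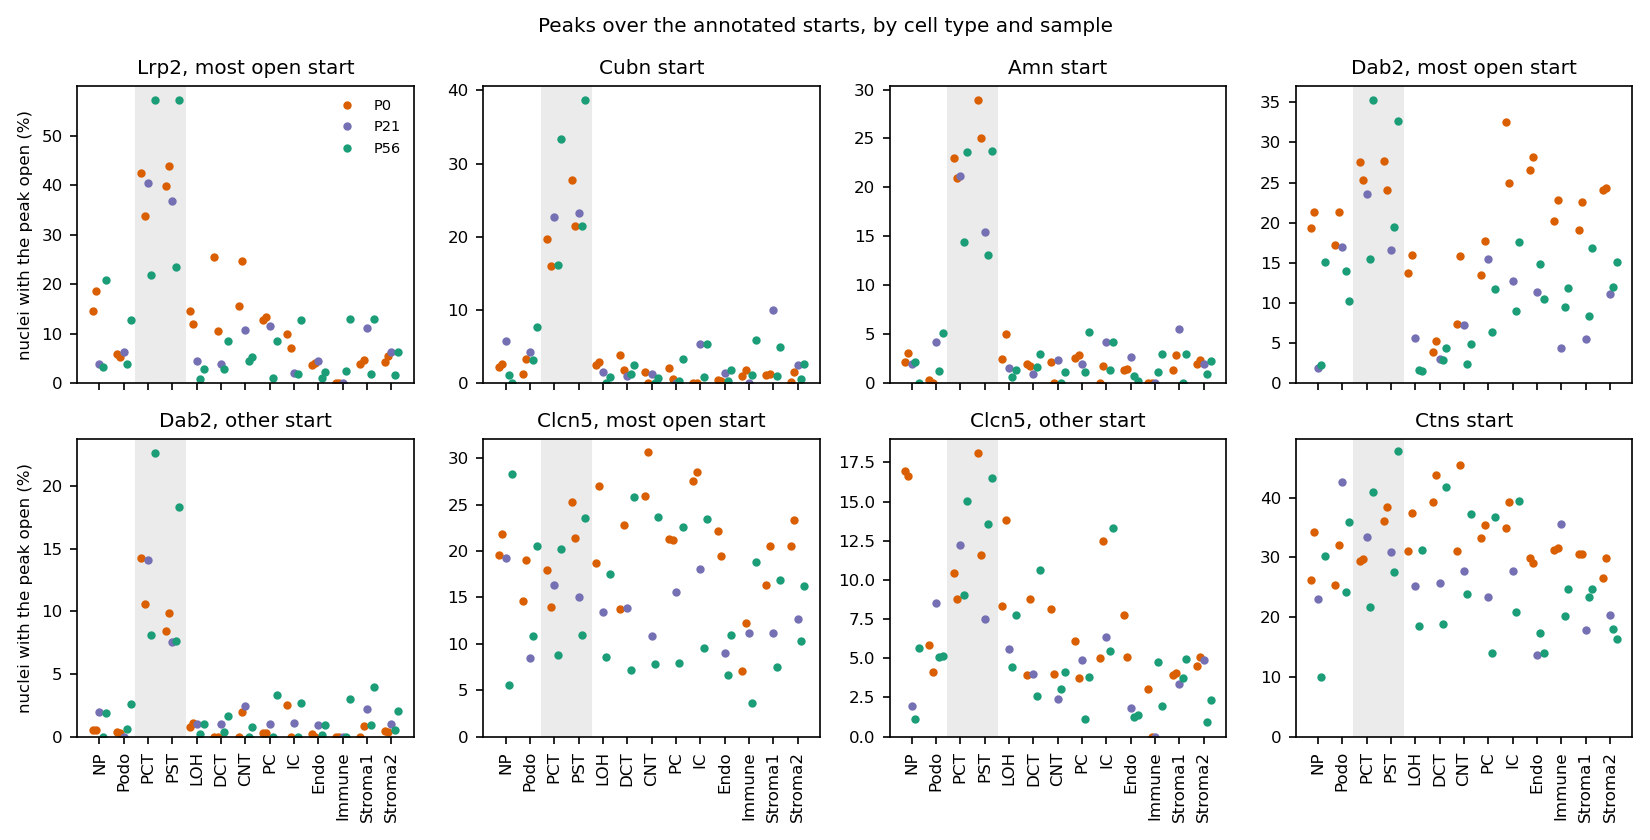
Share of nuclei (%) with the peak over an annotated start open in each of the 13 cell types (x axis), 1 point per sample coloured by age, with PCT and PST shaded; Dab2 and Clcn5 have a panel for each of their 2 start peaks. The Cubn, Amn and other (upstream) Dab2 starts stand out in PCT and PST, and the Ctns and most open Clcn5 starts are open in all 13 types, at differing levels.

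Megalin, the receptor Lrp2 (chr2:69424340-69586065, minus strand), had the most open start of the restricted group. Its start peak (chr2:69585477-69586589) was open in 42.4% and 33.8% of PCT nuclei in the P0 samples, 40.5% in the P21 sample, and 21.8% and 57.1% in the P56 samples. In PST it was open in 39.8% and 43.8% at P0 and in 36.8%, 23.4% and 57.1% in adult. The P0 and adult ranges overlapped in both segments, and the lowest and the highest values were those of the P56 samples. At P0 the other 11 types ranged from 0% in Immune (0 of 156 nuclei, which allows up to 1.92%) to 20.2% in CNT, with 16.6% ± 2.81 in NP and 13.3% ± 1.9 in LOH (mean ± SD, n = 2), and in adult from 2.61% in Endo to 9.31% in NP. The change with stage in PCT missed the threshold at the start (log2 0.39 ± 0.25, adjusted p = 0.236, edgeR), so a difference in either direction was not shown there.

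Inside the gene, some peaks passed the stage test in PCT, and whether they differ from the start was not tested. In the first introns, the peak chr2:69570523-69571280, 15164 bp downstream of the start, was open in 7.5% and 7% of PCT nuclei in the P0 samples, 22.8% in the P21 sample, and 12% and 31.6% in the P56 samples. Each adult value was above both P0 values, and the rise was 1.93 ± 0.28, adjusted p = 2.96e-04 on the log2 scale (edgeR), past the threshold in 12 of 12 alternatives that gave a value. Thinned to 1000 open peaks per nucleus, the means were 0.764% at P0 and 3.9% in adult. Nearby, chr2:69566115-69566925 was open in 10.8% and 12% of PCT nuclei in the P0 samples, 21% in the P21 sample, and 15% and 27.4% in the P56 samples, and rose by 1.23 ± 0.22, adjusted p = 0.00129 (edgeR), a call lost without P0 replicate 1. A weaker intronic peak, chr2:69573219-69573514, was open in 0.366% and 0.539% of PCT nuclei in the P0 samples, 2.71% in the P21 sample, and 1.71% and 4.31% in the P56 samples. At P0 these were 2 and 3 nuclei, so it reached the minimum count through the adult samples alone and had to differ, and its log2 change of 2.99 ± 0.54 is a description.

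One Lrp2 peak fell in adult PCT. It lies over an exon far into the gene (chr2:69464428-69464940) and was open in 11.2% and 7.9% of PCT nuclei in the P0 samples, 2.71% in the P21 sample, and 1.75% and 3.57% in the P56 samples. Both P0 values were above the adult ones, and the change was -1.47 ± 0.27, adjusted p = 0.00137 on the log2 scale in PCT (edgeR). In PST the same peak was open in 4.82% and 9.82% at P0 and in 7.52%, 4.72% and 15.9% in adult, where the ranges overlapped (log2 0.45 ± 0.49, adjusted p = 0.6, edgeR). In adult it was lower in PCT than in PST (log2 -1.35 ± 0.26, adjusted p = 9.40e-05, edgeR). Whether the stage changes of the segments differ was not tested. Of the 43 Lrp2 peaks tested in PCT, 7 rose and 1 fell, beside 16.3% of all peaks tested that were higher in adult and 17.6% that were higher at P0. The share that rose was thus that of all peaks. The other 4 that rose were intronic too, with log2 changes of 0.94 to 1.82. Of these peaks, 18 reached 5% of some cell type's nuclei at either stage. In adult all of these 18 were most open in PCT or PST, and at P0 16 were. The upstream peak chr2:69587904-69588320 was open in 9.33% ± 0.265 of PCT nuclei at P0 and 12.9% ± 6.88 in adult, and an annotated internal start (chr2:69508829-69509163) in 1.99% ± 0.0255 and 1.8% ± 1.05.

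Cubn, the gene of the receptor cubilin (chr2:13276338-13491813, minus strand), had a start open mostly in the proximal tubule and many intronic peaks of other cells. The start peak (chr2:13491758-13492424) was open in 19.7% and 16% of PCT nuclei in the P0 samples, 22.7% in the P21 sample, and 16.2% and 33.4% in the P56 samples. In PST the shares were 27.7% and 21.4% at P0 and 23.3%, 21.5% and 38.7% in adult. The highest mean outside the proximal types was 5.3% ± 4.54 in adult Stroma1 (n = 3), and at P0 the other types ranged from 0% in IC (0 of 96 nuclei, which allows up to 3.12%) to 2.84% in DCT. Scaled for depth, the start rose in PCT (log2 0.78 ± 0.21, adjusted p = 0.0131, edgeR), although the shares overlapped between stages. The call was lost without either P0 replicate and after thinning.

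Near the start, an intronic Cubn peak was more open in adult PCT. The peak chr2:13479224-13479601, 12401 bp downstream, was open in 0.914% and 0.898% of PCT nuclei in the P0 samples, 3.87% in the P21 sample, and 3.38% and 6.18% in the P56 samples. All adult values exceeded both P0 values (log2 2.65 ± 0.40, adjusted p = 3.94e-04, edgeR), a call lost after thinning. Both P0 samples reached the minimum count, but with few nuclei open and so close to that floor. Its neighbour chr2:13484776-13485539 had a log2 change of 2.59 ± 0.52 (edgeR), but met the count filter through the adult samples. Far downstream, chr2:13296284-13296730 was open in 4.02% and 2.69% of PCT nuclei in the P0 samples, 0.516% in the P21 sample, and 0.244% and 0.435% in the P56 samples. It met the filter through the P0 samples alone, and its log2 difference of -2.70 ± 0.44 is likewise a description. The most open intronic peak close to the start, chr2:13482216-13482792, was open in 4.57% and 2.51% of PCT nuclei in the P0 samples, 4.9% in the P21 sample, and 2.56% and 7.53% in the P56 samples, and missed the threshold (log2 0.84 ± 0.36, adjusted p = 0.0863, edgeR). In adult PST its mean share was 1.37% ± 1.88, so few PST nuclei had it open. It could thus meet the count filter through PCT alone and then had to be higher there. The log2 difference of 2.21 ± 0.37, PCT minus PST (edgeR), is a description.

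The middle of the Cubn gene was marked in other lineages. Of its 14 peaks that reached 5% in some type, 1 was most open in a proximal type at P0 and in adult, the start itself. At P0 the other 13 were most open in Endo (5 peaks), Stroma2 (4), or in IC, Immune, NP or Podo (1 each). An example is chr2:13371233-13373018, which was open in 30% ± 1.33 of Stroma2 nuclei at P0 (n = 2) and 10.2% ± 2.16 in adult (n = 3), in 13.7% ± 0.187 of NP at P0, and in 13.4% ± 2.88 and 12.1% ± 7.81 of Podo. In PCT it was open in 5.3% and 4.85% of PCT nuclei in the P0 samples, 2.64% in the P21 sample, and 1.14% and 2% in the P56 samples, lower in each adult sample (log2 -1.05 ± 0.35, adjusted p = 0.0343, edgeR), a call lost with DESeq2 (adjusted p = 0.0804), with no filter, without either P0 replicate and without P56 replicate 2. Other examples, chosen after their values were seen, are chr2:13413511-13414113, open in 23.6% ± 3.87 of Endo nuclei at P0 and 0.635% of PCT, and chr2:13398654-13399584, open in 19.9% ± 0.669 of NP nuclei at P0 and 1.81% of PCT. A peak is assigned here to the gene it lies in, and which gene it acts on was not measured.

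**Figure D2:**
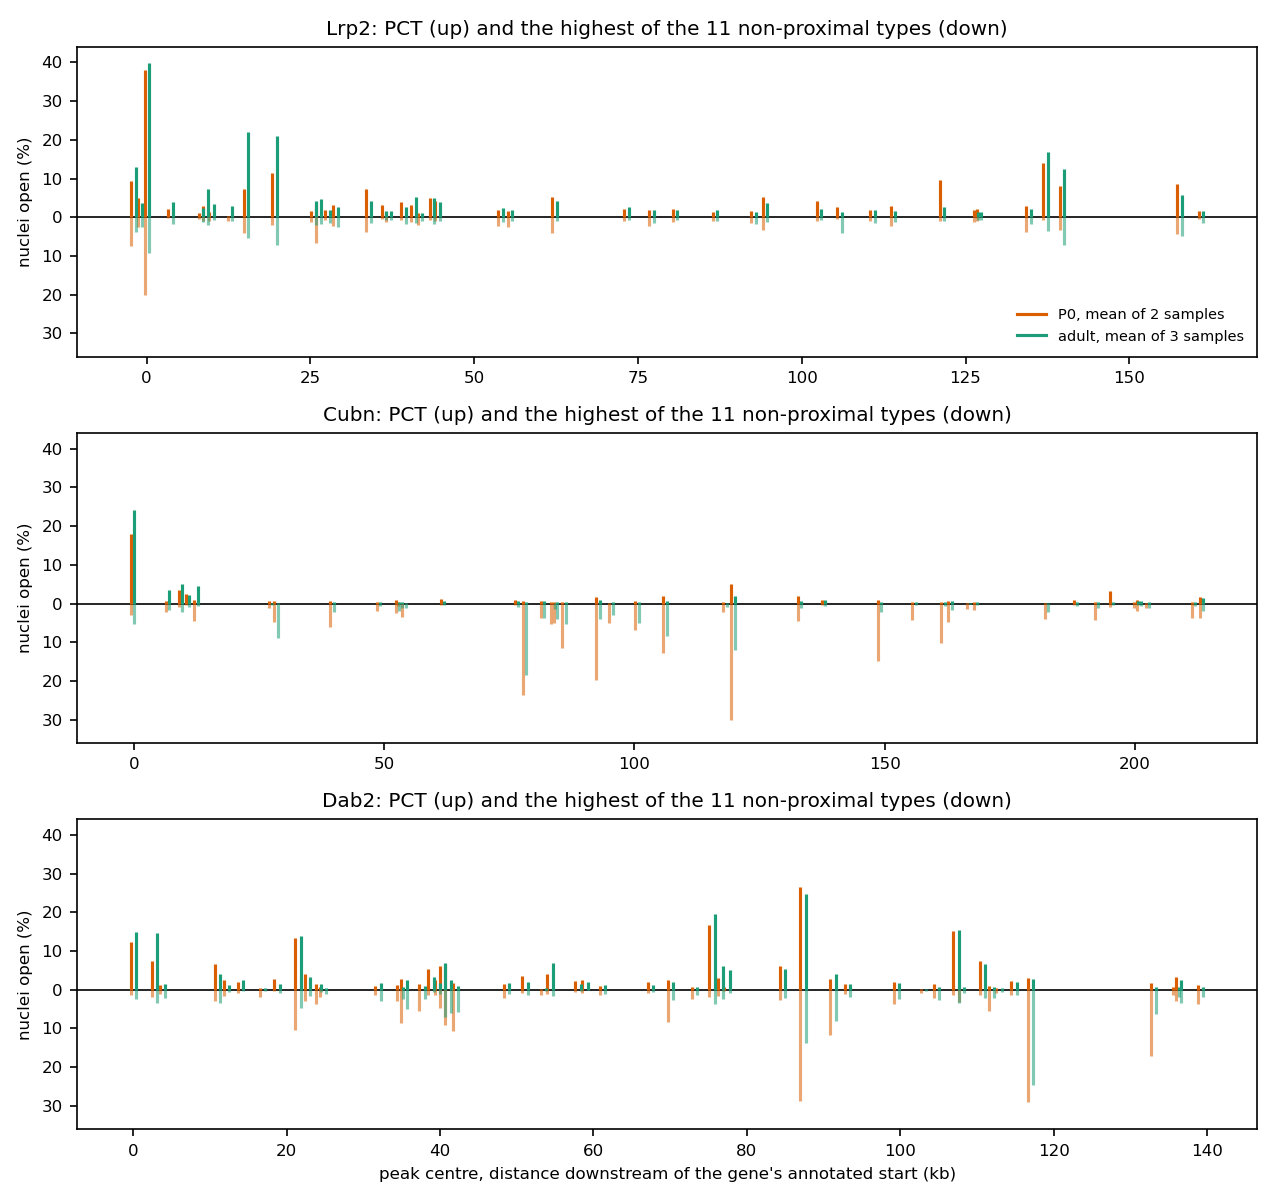
Each pair of lines is 1 peak at the distance of its centre from the gene's annotated start (x axis, kb); height upwards is the mean share of PCT nuclei with the peak open and depth downwards the highest mean among the 11 types outside the proximal tubule (%, P0 and adult side by side). Lrp2 is open mostly upwards, Cubn upwards near its start and downwards in the middle of the gene, and Dab2 in both directions.

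Amn, whose product amnionless carries cubilin to the surface, is a short gene (chr12:111271095-111276426, plus strand). Its start peak (chr12:111270794-111271806) was open in 23% and 21% of PCT nuclei in the P0 samples, 21.2% in the P21 sample, and 14.5% and 23.6% in the P56 samples. Outside the proximal types it ranged from 0% in Immune (0 of 156 nuclei, which allows up to 1.92%) to 3.79% in LOH at P0 and from 1.17% in LOH to 3.55% in Podo in adult. The start did not pass the stage test in PCT (log2 0.21 ± 0.20, adjusted p = 0.447, edgeR), where its sign turned after thinning, nor in PST (-0.40 ± 0.23, adjusted p = 0.266). A peak at the other end of the gene passed the test, and whether it differs from the start was not tested. This peak, chr12:111276118-111276939, over the last exon and beyond it, was open in 3.11% and 1.97% of PCT nuclei in the P0 samples, 9.03% in the P21 sample, and 6.34% and 11.4% in the P56 samples. All adult values were above both P0 values, with a rise of 2.18 ± 0.29, adjusted p = 1.70e-04 (edgeR) that passed under 12 of 12 alternatives. In adult it was more open in PCT than in PST (log2 1.64 ± 0.24, adjusted p = 3.64e-06, edgeR). The intronic peak chr12:111272582-111272944 was low throughout, at 4.34% ± 1.48 and 3.93% ± 1.24 of PCT nuclei at P0 and in adult.

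Summed over its 4 peaks, Amn was the member that passed the stage test in PCT (log2 0.46 ± 0.13, adjusted p = 0.0231, edgeR at gene level, where 12.1% of genes tested were higher in adult and 15.1% higher at P0). The call was lost without either P0 replicate, without P21 replicate 1 and after thinning. In LOH the sum was higher at P0 (log2 -0.77 ± 0.24, adjusted p = 0.018, edgeR). Amn was open in 12.6% and 10.9% of CNT nuclei at P0 and in 4.82%, 1.7% and 3.76% in adult. In CNT the sum met the count filter through the P0 samples alone and had to differ. Its log2 change of -1.47 ± 0.48 (edgeR) is thus a description. In these types 28.4% and 15.9% of genes tested were higher at P0. A peak over an exon inside the gene, chr12:111275342-111276015, was open at P0 in 10.3% ± 2.12 of DCT, 8.22% ± 3.73 of PC and 6.69% ± 1 of LOH nuclei, and in 1.82% ± 0.792 of PCT.

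Dab2, the clathrin adaptor (chr15:6299788-6440712, plus strand), has annotated starts in 2 clusters, the second with its peak centre 87324 bp downstream of the first start, and they were open in different cells. The upstream start (chr15:6299460-6300267) was open in 14.3% and 10.6% of PCT nuclei in the P0 samples, 14.1% in the P21 sample, and 8.13% and 22.6% in the P56 samples, and in 9.13% ± 0.981 of PST nuclei at P0 and 11.1% ± 6.2 in adult. In the 11 other types it ranged from 0% in DCT (0 of 108 nuclei, which allows up to 2.78%) to 1.25% in IC at P0 and from 0.658% in Endo to 2.37% in Stroma1 in adult. The downstream start (chr15:6386441-6387784) was open in 27.6% and 25.3% of PCT nuclei in the P0 samples, 23.5% in the P21 sample, and 15.5% and 35.3% in the P56 samples, and at P0 also in 28.8% ± 5.3 of IC, 27.3% ± 1.16 of Endo, 24.2% ± 0.152 of Stroma2, 21.5% ± 1.84 of Immune and 20.3% ± 1.49 of NP nuclei. DCT was lowest, at 4.59% ± 0.949. In adult the downstream start was at 13.1% ± 4.26 in IC, 12.2% ± 2.36 in Endo and 2.92% ± 2.31 in LOH, where it had been at 14.8% ± 1.59.

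The contrast of the mean of PCT and PST with the mean of the 11 other types put a number on this difference. For the upstream start it was log2 5.04 ± 0.46 at P0 and 3.01 ± 0.21 in adult, and for the downstream start 0.43 ± 0.13 and 0.96 ± 0.11. In the same contrast the Lrp2 start had 2.72 ± 0.17 and 2.26 ± 0.11, the Cubn start 4.15 ± 0.26 and 3.19 ± 0.15, and the Amn start 4.32 ± 0.26 and 2.73 ± 0.17. Since the same nuclei made the clusters, these contrasts serve to rank peaks and test no cell type on fresh data. Of the 167 peaks, 94 could be tested at P0, and 55 were higher and 1 lower in the proximal types, against 22.4% and 5.11% of all peaks tested. In adult 30 could be tested, of which 23 were higher and 4 lower, against 33.3% and 24.1%. A peak could meet the count filter through PCT or PST alone and then had to be higher there. How many did so was not counted, so the counts at both stages are descriptions. The adult count of higher peaks was 36 without P21 replicate 1.

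The Dab2 peaks most open in PCT away from a start were intronic. The peak chr15:6374818-6375627, between the starts, was open in 16.6% and 16.9% of PCT nuclei in the P0 samples, 18.1% in the P21 sample, and 10.9% and 29.8% in the P56 samples, and chr15:6406756-6407320, downstream of both starts, in 17% and 13.5% of PCT nuclei in the P0 samples, 12.8% in the P21 sample, and 12.6% and 20.8% in the P56 samples. Neither passed the stage test in PCT (log2 0.54 ± 0.26, adjusted p = 0.124 and 0.39 ± 0.21, adjusted p = 0.173, edgeR). Outside the proximal types the first ranged from 0% in DCT (0 of 108 nuclei, which allows up to 2.78%) to 1.78% in LOH at P0 and from 0.473% in Endo to 3.67% in Stroma1 in adult. A small peak, chr15:6377019-6377326, was open in 0.548% and 0.718% of PCT nuclei in the P0 samples, 4.58% in the P21 sample, and 2.77% and 7.88% in the P56 samples, so that all adult values exceeded those at P0. The P0 shares were 3 and 4 nuclei, so it too met the count filter through adult and had to differ, with a log2 change of 3.30 ± 0.49. The other 3 Dab2 peaks that rose were intronic, with log2 changes of 1.13 to 1.35. In PST the small peak was open in 2.1% ± 0.441 at P0 and 0.771% ± 0.338 in adult, below PCT in adult. The adult PST samples had 266, 657 and 825 nuclei, so few PST nuclei had it open. It could thus meet the count filter through PCT alone and then had to be higher there. The log2 difference of 3.35 ± 0.41, PCT minus PST (edgeR), is a description. The peak chr15:6340595-6341035 fell and was open in 7.13% and 6.1% of PCT nuclei in the P0 samples, 3.16% in the P21 sample, and 0.895% and 3.26% in the P56 samples (log2 -1.13 ± 0.38, adjusted p = 0.0361, edgeR), a call lost with DESeq2 (adjusted p = 0.0583), with no filter and without either P0 replicate.

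Dab2 also held peaks of other cells. The peak over an exon at chr15:6416372-6417171 was open in 29.1% ± 9.34 of IC nuclei at P0 (n = 2) and 24.5% ± 6.42 in adult (n = 3), in 16% ± 0.374 and 8.6% ± 2.46 of PC, and in 2.99% ± 0.679 and 2.9% ± 0.793 of PCT. Within the proximal tubule it was more open in PST, at 7.99% ± 2.87 in adult (log2 PCT minus PST -1.08 ± 0.25, adjusted p = 0.00101, edgeR). Of the 24 Dab2 peaks that reached 5% in some type, 14 were most open in PCT or PST at P0 and as many in adult. The other 10 were most open in Immune (5), IC (2), Stroma2 (2) or Endo (1) at each stage. Macrophages are known to express Dab2, and the peak chr15:6340595-6341035 reached 9.06% ± 2.89 of Immune nuclei at P0 and 6.04% ± 2.49 in adult.

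Clcn5, the endosomal exchanger on the X chromosome (chrX:7153810-7319358, minus strand), also has 2 groups of starts, of which the upstream one was open widely. The upstream start (chrX:7318723-7319751) was open in 17.9% and 14% of PCT nuclei in the P0 samples, 16.4% in the P21 sample, and 8.82% and 20.2% in the P56 samples. Among the other types it ranged from 9.68% in Immune to 28.3% in CNT at P0 and from 8.85% in Endo to 17.7% in NP in adult, so PCT lay inside that range at both stages. The downstream start (chrX:7187653-7189022) was open in 10.4% and 8.8% of PCT nuclei in the P0 samples, 12.3% in the P21 sample, and 9.03% and 15% in the P56 samples, and in other types from 1.52% in Immune to 16.8% in NP at P0 and from 1.49% in Endo to 8.37% in IC in adult. Scaled for depth, it rose in PCT (log2 0.70 ± 0.21, adjusted p = 0.0207, edgeR), which was lost with DESeq2 (adjusted p = 0.0543), after thinning and without either P0 replicate. Its contrast of proximal with other types was log2 0.77 ± 0.20 at P0 and 1.13 ± 0.16 in adult. The upstream start had -0.22 ± 0.13 and -0.43 ± 0.099, of which the adult value turned positive with no filter and after thinning.

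Most Clcn5 peaks were rarely open in PCT, with a median share of 0.317% of PCT nuclei per peak at P0 and 0.177% in adult over its 22 peaks, the starts included. The peak chrX:7157707-7158578, over an exon near the end of the gene, was open in 4.57% and 3.95% of PCT nuclei in the P0 samples, 3.8% in the P21 sample, and 3.54% and 4.13% in the P56 samples. In adult it was higher in PCT than in PST (log2 1.60 ± 0.34, adjusted p = 3.02e-04, edgeR). Intercalated cells, which are also known to contain ClC-5, led at the intronic peak chrX:7199302-7199923, with 7.68% ± 3.28 at P0 and 2.63% ± 1.37 in adult. PCT was at 1.73% ± 0.663 and 1.33% ± 0.205. After thinning, IC was above PCT at P0 (0.909% and 0.196%) and below it in adult (0.156% and 0.23%). A Y chromosome peak was open in 49.9% and 68.1% of nuclei in the P0 samples and in 27.4%, 31.9% and 47% in the adult samples. The part of sex in the Clcn5 values was not tested.

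Ctns, the lysosomal cystine exporter (chr11:73183596-73199042, minus strand), had a start that was open in all 13 types. The start peak (chr11:73198758-73199784) also covers the start of the neighbouring gene Shpk on the other strand, and the reads cannot be told apart. It was open in 29.4% and 29.8% of PCT nuclei in the P0 samples, 33.3% in the P21 sample, and 21.6% and 41% in the P56 samples. The other types ranged from 28.3% in Stroma2 to 41.5% in DCT at P0 and from 15% in Endo to 34.2% in Podo in adult. The change in PCT missed the threshold (log2 0.45 ± 0.21, adjusted p = 0.12, edgeR). In the contrast of proximal with other types it had log2 -0.15 ± 0.094 at P0 and -0.17 ± 0.071 in adult, and the adult sign turned with RLE scaling (0.030) and DESeq2 (0.030).

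A second Ctns peak was open mostly in the proximal tubule. It covers an exon and the introns beside it (chr11:73187202-73187793, 11545 bp downstream of the start) and was open in 9.32% and 8.44% of PCT nuclei in the P0 samples, 4.58% in the P21 sample, and 3.86% and 9.14% in the P56 samples. In PST it was open in 4.82% and 7.14% at P0 and in 8.27%, 5.63% and 15.4% in adult. Elsewhere it ranged from 0% in DCT (0 of 108 nuclei, which allows up to 2.78%) to 0.99% in CNT at P0 and from 0.201% in Endo to 2.02% in IC in adult, and the contrast of proximal with other types was log2 5.00 ± 0.57 at P0 and 2.65 ± 0.25 in adult. It did not pass the stage test in either segment (log2 -0.26 ± 0.28, adjusted p = 0.502 in PCT and 0.84 ± 0.47, adjusted p = 0.252 in PST, edgeR). The other 2 peaks were rare in PCT. The peak chr11:73193269-73193607 was at 9.94% ± 1.65 of Immune nuclei at P0, and chr11:73186251-73186625 reached 0.362% ± 0.00464 of PCT nuclei.

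**Figure D3:**
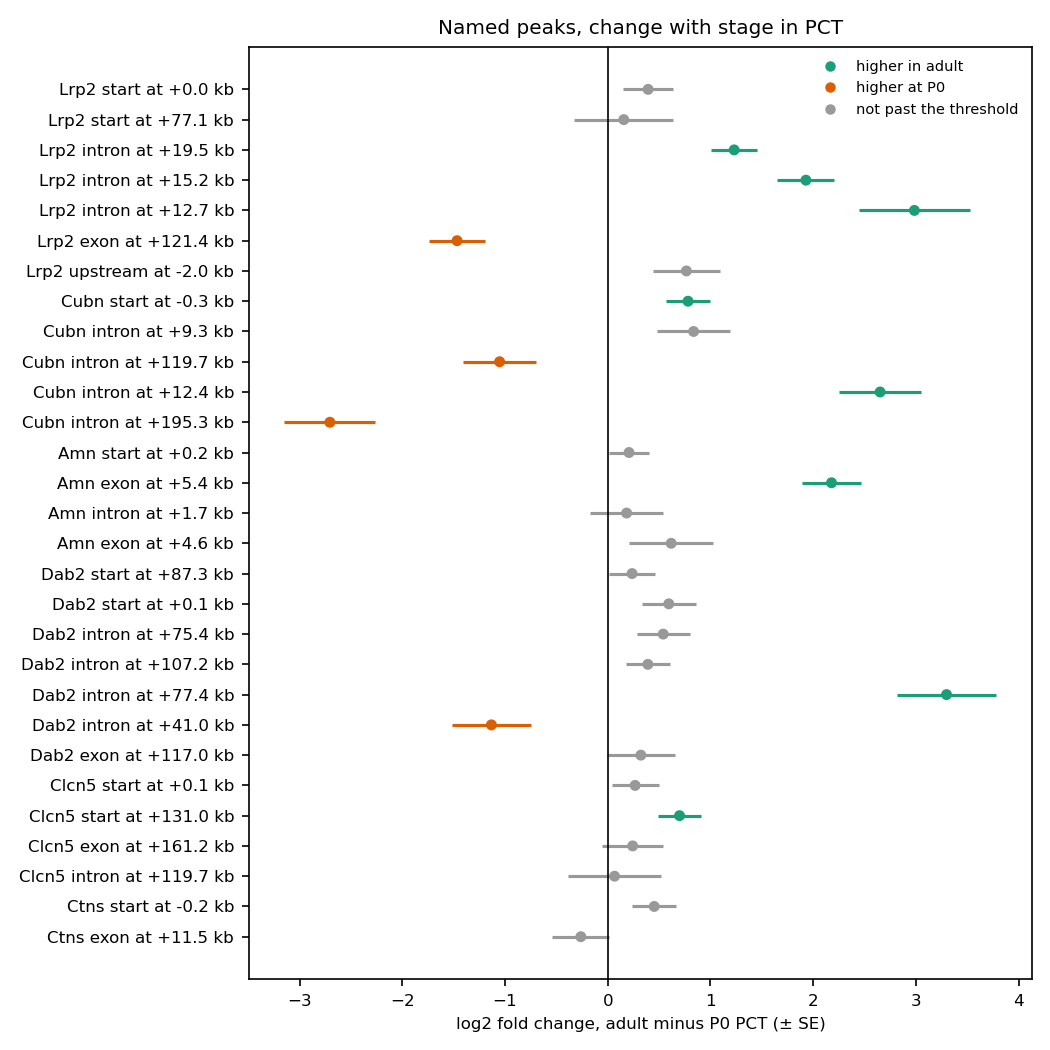
Change with stage in PCT for each named peak that could be tested, as the log2 fold change of scaled open calls, adult minus P0 (x axis), with the edgeR SE; the y axis names the gene, the element and the distance of the peak centre from the gene's start. Both starts of Lrp2 and of Dab2, the Amn and Ctns starts and the upstream Clcn5 start lie at 0.16 to 0.59 and miss the threshold. Intronic peaks lie on both sides of 0, from -2.70 at Cubn to 3.30 at Dab2, and the Amn peak at the end of the gene lies at 2.18. The peaks at -2.70 and 3.30 met the count filter through 1 stage alone, where they had to differ.

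Over the 6 genes, 124 of the 167 peaks could be tested between P0 and adult PCT, and 16 rose and 4 fell, with a median log2 change of 0.20 beside 0.021 for all peaks tested. Of those called, 3 that rose and 1 that fell met the count filter through 1 stage alone, where they had to differ. Of all peaks tested, 16.3% rose and 17.6% fell. Cubn had 3 that rose and 2 that fell of 18 tested, Dab2 4 and 1 of 49, Clcn5 1 and 0 of 8, and Ctns none of 2. The count that rose was 29 without P56 replicate 1 and 8 without either P0 replicate, and the count that fell was 2 without either P0 replicate. In PST, which had 195 nuclei at P0, 33 peaks could be tested, of which 1 rose and 1 fell, beside 9.04% and 6.99% of all peaks. These were the Lrp2 peak chr2:69573219-69573514, open in 0 of these nuclei (which allows up to 1.54%, for counting error only) and in 3.01%, 3.96% and 8.61% in adult, and the Cubn peak chr2:13371233-13373018, with 12% and 7.14% at P0 and 0.376%, 1.07% and 3.64% in adult. Both met the count filter through 1 stage alone, so these calls support no change with stage in PST.

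Within the adult proximal tubule, Dab2 had the largest median difference between the segments among the 6 genes. Of its 43 peaks tested, 30 were higher in PCT and 3 in PST, where 20.4% and 21.9% of all peaks were. The median log2 difference of the Dab2 peaks was 1.52, PCT minus PST, beside 0.012 for all peaks. Of the Amn peaks, 3 of 4 were higher in PCT, and of the Lrp2 peaks 6 were higher in PCT and 2 in PST of 43. Cubn had 4 and 1 of 14, Clcn5 1 and 0 of 7, and the 2 tested Ctns peaks missed the threshold, the start at 0.21 ± 0.15, adjusted p = 0.277 (edgeR). The starts of Lrp2, Amn and both of Dab2 were higher in PCT (log2 0.38 ± 0.15, 0.56 ± 0.15, 0.79 ± 0.18 for the upstream and 0.46 ± 0.16 for the downstream Dab2 start, edgeR), although their shares of nuclei were close, at 39.8% ± 17.7 and 39.1% ± 16.9 for Lrp2. PCT and PST were separated with these nuclei, so this too is a ranking. A peak could meet the count filter through 1 segment alone and then had to be higher there. Such peaks were not counted apart, which also bears on the single peaks compared between the segments above. The 44 peaks higher in PCT over the 6 genes were 29 without P56 replicate 2.

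Counted per gene, a nucleus was called open where at least 1 of the gene's peaks was open, which favours genes with many peaks. Lrp2 was open in PCT nuclei at 77% and 73.1% in the P0 samples, 81.4% in P21 and 67.9% and 92.7% in P56, and in PST at 85.5% and 75.9% in the P0 samples, 76.7% in P21 and 74.7% and 94.1% in P56. Both proximal types lay above every other type in each of the 5 samples, by at least 27.5 percentage points at P0 and 45.6 in adult. After thinning to 1000 open peaks, which evens the depth, PCT shares were 24.1% ± 2.19 at P0 and 32.7% ± 5.7 in adult, and the lead held in the 5 samples. Dab2 was open in PCT at 74.6% and 73.1% in the P0 samples, 73% in P21 and 67.1% and 89.1% in P56 (25% ± 1.49 at P0 and 28.4% ± 3.96 in adult thinned). PST was at 74% ± 6.13 at P0 and 71.3% ± 13.9 in adult, and IC was highest of the 11 other types, at 66.1% ± 5.05 at P0 and 54.3% ± 5.48 in adult. After thinning both proximal types led the others in 1 of 2 P0 and 1 of 3 adult samples, and at P0 Immune (17%) lay above PST (16.5%). Cubn was open in PCT at 42.4% and 36.1% in the P0 samples, 39.7% in P21 and 32.8% and 53.6% in P56. At P0 its mean in PCT was below Endo (63.9% ± 7.32), Stroma2 (60.5% ± 1.91), NP (46.7% ± 1.15) and IC (42.5% ± 10.6). After thinning, Immune and Podo lay above PCT at P0 as well. In adult PST and PCT had the highest means and both led in 2 of 3 samples, but in 0 of 3 after thinning, where Immune, Endo and Stroma1 lay above them.

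Amn, Clcn5 and Ctns gave lower shares in PCT than Lrp2 and Dab2. Amn was open in PCT at 29.6% and 26% in the P0 samples, 31.9% in P21 and 22.4% and 35.7% in P56, and with PST it led the other 11 types in each sample, by 3.59 percentage points or more. After thinning the lead held in 3 of 5 samples. Clcn5 was open in PCT at 35.1% and 28.7% in the P0 samples, 30.6% in P21 and 24.1% and 38.1% in P56. IC reached 47% ± 0.758 at P0 and 31.5% ± 9.13 in adult. After thinning, IC and PCT were at 7.95% and 5.85% at P0 and at 6.06% and 6.4% in adult. Ctns was open in PCT at 36.6% and 34.1% in the P0 samples, 36.2% in P21 and 24.6% and 46.4% in P56. The other types ranged from 28.9% to 41.5% at P0. After thinning, PCT and PST together led the other types in 0 of 2 P0 and 0 of 3 adult samples for both Clcn5 and Ctns. At least 1 peak of the 6 genes was open in 92% ± 0.615 of PCT nuclei at P0 and 95.1% ± 3.05 in adult, or 56.7% ± 1.37 at P0 and 63.8% ± 5.67 in adult thinned.

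Outside the proximal tubule the megalin and Dab2 starts were less open in adult in some types. The Lrp2 start was open in 14.6% and 12% of LOH nuclei at P0 and 4.57%, 0.768% and 2.87% in adult (log2 -1.40 ± 0.35, adjusted p = 0.0015, edgeR). In CNT it was open in 15.6% and 24.8% at P0 and 10.8%, 4.42% and 5.26% in adult (log2 -1.40 ± 0.40, adjusted p = 0.0127, edgeR). The P0 shares, which depend on depth, lay above all adult shares in both types. A median CNT nucleus had 6263 and 8170 open peaks at P0 and 3936, 3240.5 and 6190.5 in adult. Of all peaks tested, 29.9% in LOH and 12.2% in CNT were higher at P0. Summed over its peaks, Lrp2 missed the threshold in LOH (log2 -0.55 ± 0.31, adjusted p = 0.151) and CNT (-0.045 ± 0.24, adjusted p = 0.909, edgeR). The downstream Dab2 start was open in 13.7% and 16% of LOH nuclei at P0 and 5.58%, 1.63% and 1.55% in adult (log2 -1.45 ± 0.35, adjusted p = 9.96e-04, edgeR). Nephron progenitors showed the same direction, with that start open in 19.3% and 21.4% of NP nuclei at P0 and 1.92%, 2.22% and 15.1% in adult. These adult shares came from 52, 90 and 53 nuclei. In NP the start met the count filter through the P0 samples alone and had to differ. Its log2 change of -1.66 ± 0.38 (edgeR) is thus a description, beside 20.4% of NP peaks higher at P0. Beside these falls in LOH, the proximal markers Slc34a1 and Slc5a2 were open in 2.01% and 1.86% of LOH nuclei at P0 and 1.49% and 0.534% in adult, and Kap in 0.157% and 0.327%, and their part was not tested. A further 3 starts passed the threshold upwards outside PCT and PST. These were the Lrp2 start in Stroma1, at 4.3% ± 0.545 and 8.62% ± 5.91 (log2 1.51 ± 0.47, edgeR, with 17% of peaks higher in adult), the Cubn start in Stroma2, at 0.862% ± 1 and 1.87% ± 1.14 (log2 1.91 ± 0.79, edgeR, with 23.7%), and the Ctns start in LOH, at 34.2% ± 4.53 and 24.9% ± 6.37 (log2 0.65 ± 0.22, adjusted p = 0.0132, edgeR, with 24.4%). The minimum count is scaled to the median sum, an adult one in both stromal types. The Lrp2 start in Stroma1 and the Cubn start in Stroma2 met it through the adult samples alone. They had to differ, so their changes are descriptions. The Ctns share was lower in adult while the scaled change was positive. A median LOH nucleus had 6567 and 7430 open peaks at P0 and 3084, 2496 and 4477 in adult.

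The sums of open calls per gene were then compared between stages in each cell type. Besides Amn in PCT, Lrp2 in PST rose (log2 0.63 ± 0.15, adjusted p = 0.0184, edgeR, where 5.48% of genes tested were higher in adult and 7.83% at P0). The remaining member values in PCT were positive and missed the threshold, at 0.43 for Lrp2, 0.30 for Cubn, 0.26 for Dab2, 0.26 for Clcn5 and 0.24 for Ctns (adjusted p from 0.0751 to 0.201, edgeR). Lrp2, Cubn and Dab2 passed without P56 replicate 1, and Lrp2 alone with DESeq2 or after thinning. The Lrp2 call in PST was lost without either P0 replicate and after thinning. Outside the proximal tubule Cubn fell in 6 of 11 types, by 1.44 on the log2 scale in CNT, 1.13 in LOH, 1.04 in Stroma2, 0.76 in NP, 0.64 in PC and 0.49 in Endo. The share of all genes tested that were higher at P0 was 15.9% in CNT, 28.4% in LOH, 20% in Stroma2, 20.9% in NP, 18% in PC and 14.3% in Endo. Clcn5 missed the threshold in each of the 13 types, with adjusted p from 0.126 to 0.975 (edgeR). Dab2 rose in Podo (log2 0.82 ± 0.18, adjusted p = 0.00145) and PC (0.56 ± 0.15, adjusted p = 0.00856), and Ctns rose in LOH (0.50 ± 0.14, adjusted p = 0.0136, edgeR). In these types 6.51%, 12.6% and 23% of genes were higher in adult.

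Lrp2 rose in adult Podo (log2 1.07 ± 0.24, adjusted p = 0.00181) and Stroma1 (1.95 ± 0.27, adjusted p = 1.13e-05, edgeR). The samples were not alike in this. Lrp2 was open in 16.3% and 16.9% of Podo nuclei at P0 and 17%, 11.5% and 25.6% in adult. In Stroma1 the shares were 13.5% and 19.8%, and 26.7%, 10.3% and 30.7%. After thinning, P56 sample 1 was at 2.05% of Podo, with P0 at 2.71% and 3.14%. In Stroma1 it was at 3.23%, with P0 at 3.42% and 3.12%. In Stroma1 13.3% of genes were higher in adult. Beside this, the start of the proximal marker Slc34a1 was open in 0.48% of Stroma1 and 0.74% of Podo nuclei at P0, and in adult in 6.67%, 0.935% and 10.9% of Stroma1 and 6.38%, 0.637% and 12.8% of Podo nuclei at P21 and in the P56 samples. The intronic Lrp2 peak chr2:69566115-69566925 moved alike, at 0.378% ± 0.33 and 7.23% ± 5.66 of Stroma1 nuclei. Of the other proximal markers, Slc5a2 was open in 0.276% and 1.73% of Stroma1 nuclei at P0 and in adult, and Kap in 0.217% and 0.741%. In PC, where Dab2 rose, Slc34a1 was open in 2.22% and 5.36% of nuclei at P0 and in adult, Slc5a2 in 1.25% and 0.921% and Kap in 0.27% and 0.481%. In Stroma2, where the change of the Cubn start is a description, Slc34a1 was open in 0.955% and 2.83%, Slc5a2 in 0.442% and 0.577% and Kap in 0.12% and 0.903%. In Podo, Slc5a2 was open in 0.163% and 0.922% and Kap in 0% and 0.709%. The part of proximal DNA or of mixed nuclei in these values was not tested.

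**Figure D4:**
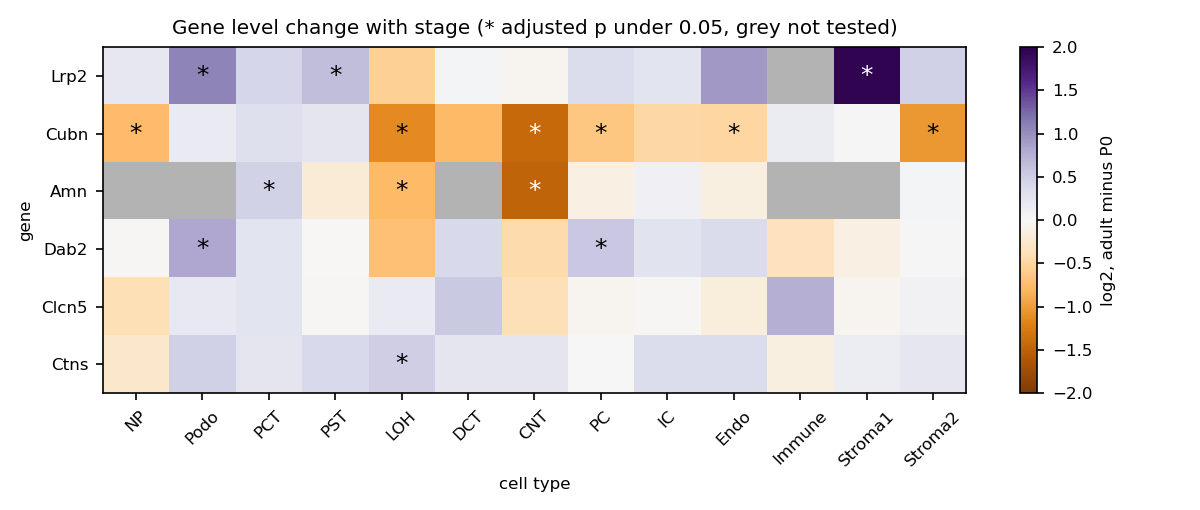
Log2 change with stage (adult minus P0, colour) of open calls summed per gene, for the 6 genes (rows) in the 13 cell types (columns); an asterisk marks an edgeR adjusted p under 0.05 and grey a sum too low to test. Cubn is lower in adult in 6 types outside the proximal tubule, and Lrp2 is higher in PST, Podo and Stroma1. The Amn sum in CNT met the count filter through P0 alone, where it had to differ.

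The difference in stage change between the proximal types and the 11 others depended on scaling. With TMM scaling the median of all peaks was 0.50 (log2, proximal minus others), with RLE scaling -0.029 and with DESeq2 -0.29, and the share of called peaks with the larger adult gain in the proximal types was 83.1%, 21.9% and 19.8%. Of 67 member peaks tested, 5 had a larger and 3 a smaller adult gain in the proximal types, against 12% and 2.44% of all peaks. The count of larger gains was 2 with RLE and 2 with DESeq2. The downstream Dab2 start stood above the median under each scaling, at 1.29 ± 0.18 with TMM, 0.72 with RLE and 0.71 with DESeq2 (adjusted p = 2.59e-10, 2.53e-04 and 0.00689, edgeR and DESeq2). Its mean share went from 26.5% to 24.8% in PCT and from 25.9% to 22.9% in PST, and was lower in adult in each of the 11 other types. After thinning it was higher in adult in PCT, PST and 3 of the 11, which were Endo (4.6% to 5.78%), Immune (4.13% to 4.89%) and Stroma2 (3.1% to 4.37%). The count of 5 was 1 without P0 replicate 1, 2 without P0 replicate 2 or P56 replicate 2, and 3 without P56 replicate 1. The peaks with the smaller gain were chr15:6374818-6375627 and chr15:6406756-6407320 of Dab2 (-1.48 ± 0.49 and -1.30 ± 0.45) and the Lrp2 peak chr2:69448484-69449214 (-2.52 ± 0.59, edgeR), the last named after its values were seen. The calls of the Dab2 pair passed under 7 and 6 of 10 alternatives and that of Lrp2 under 8, with those of chr15:6374818-6375627 lost without either P0 replicate and without P56 replicate 2, and those of chr15:6406756-6407320 without either P0 replicate, with equal numbers of nuclei and with no sample block. That Lrp2 peak was open in 0% to 0.7% of the 11 other types at P0 and in 1.06% to 3.49% in adult. The proximal marker Slc34a1 was open at its start in 0.459% to 2.22% of these types at P0 and in 1.04% to 6.61% in adult, and it was lower in adult in LOH (2.01% and 1.49%). Slc5a2 was open in 0% to 1.86% at P0 and 0.395% to 2.27% in adult, lower in adult in LOH, CNT and PC, and Kap in 0% to 0.27% and 0% to 0.999%. The part of this in the result was not tested.

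Other genes of the pathway were counted at gene level in PCT from a list of 28. Of 10 receptor partners and coat genes, 2 rose and 0 fell: Fcgrt, the receptor that spares albumin and immunoglobulin from breakdown (log2 0.79 ± 0.15, adjusted p = 0.00427, edgeR), and Myo6, a motor that moves endocytic vesicles (0.41 ± 0.099, adjusted p = 0.014). Of 8 endosome genes, Inpp5b rose (0.80 ± 0.12, adjusted p = 0.00178) and Ocrl fell (-1.04 ± 0.22, adjusted p = 0.00686, edgeR). Both encode inositol polyphosphate 5-phosphatases, and OCRL is the gene of Lowe syndrome. Of 10 lysosome genes, Lamp2, a membrane protein (0.51 ± 0.12, adjusted p = 0.0115), and Ctsb, a protease (0.79 ± 0.14, adjusted p = 0.00329, edgeR), rose and 0 fell. The median log2 changes of the lists were 0.12, 0.093 and 0.19, beside 0.014 for all genes. In PST, Fcgrt (0.98 ± 0.23, adjusted p = 0.015) and Inpp5b (0.72 ± 0.18, adjusted p = 0.0206, edgeR) rose and 0 of the 28 fell, beside 5.48% and 7.83% of all genes. Over the 28 genes, 5 rose and 1 fell in PCT, to be read against the 12.1% and 15.1% of all genes. The part of sex in these values, those of Ocrl and Lamp2 among them, was not tested.

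The genes whose activity was most alike over the 26 means of 13 types and 2 stages were sought for each member, as Pearson's r of log2 scaled open calls among 16538 genes that share no peak with it. The means share libraries and depth, so these are descriptions. For Lrp2 they were Acox2 (r = 0.95), BC035947 (r = 0.95) and Slc2a2 (r = 0.94), of which Slc2a2 is the glucose transporter at the base of proximal tubule cells and Acox2 a peroxisomal oxidase. For Cubn they were Pxdc1 (r = 0.87), Gas7 (r = 0.87) and Zyx (r = 0.83). Amn was most like Igfbp1 (r = 0.88), Slc45a2 (r = 0.87) and Cdcp1 (r = 0.87), and Dab2 most like Dpp7 (r = 0.87), Aoah (r = 0.86) and Lgals8 (r = 0.84). The values were lower for Clcn5, with Ncoa2 (r = 0.76), Tubgcp6 (r = 0.72) and Mfap1a (r = 0.71). Ctns was most like Supt20 (r = 0.88) and Trappc1 (r = 0.88). Among the members, Lrp2 and Amn were alike (r = 0.80), Cubn and Dab2 less so (0.53), and Lrp2 and Cubn were not (-0.093).

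Motif letters for factors of the proximal tubule and the lysosome were searched on both strands in the central 300 bp of each peak. CAAAGTCCA, a site form of Hnf4a, was found in 3 of the 167 peaks (1.8%, against 0.802% of all peaks), GTTAATNAT, of Hnf1 factors, in 5 (2.99% against 1.48%), and TCACGTGA, of Tfeb, in 1 (0.599% against 0.314%). The letters of the 3 motifs overlap in no printed window, and none was found in the printed 250 bases before the starts. Windows that hold one are shown on the strand of the gene with the motif in capitals, for the restricted Ctns peak, the Cubn peaks with the largest difference between stages in PCT in each direction, and the intronic Lrp2 peak chr2:69448484-69449214, open in 14% ± 1.74 of PCT nuclei at P0 and 16.8% ± 8.03 in adult. The window of the Lrp2 peak that rose at chr2:69570523-69571280 holds none of the 3 and is printed last, without capitals. A match is a description of the letters and shows no binding.
Ctns chr11:73187348-73187647: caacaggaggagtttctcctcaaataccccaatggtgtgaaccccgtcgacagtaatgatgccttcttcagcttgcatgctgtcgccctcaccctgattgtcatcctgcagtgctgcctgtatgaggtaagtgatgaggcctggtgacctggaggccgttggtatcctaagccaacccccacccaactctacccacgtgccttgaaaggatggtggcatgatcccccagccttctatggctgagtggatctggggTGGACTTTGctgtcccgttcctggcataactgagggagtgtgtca
Cubn chr2:13479263-13479562: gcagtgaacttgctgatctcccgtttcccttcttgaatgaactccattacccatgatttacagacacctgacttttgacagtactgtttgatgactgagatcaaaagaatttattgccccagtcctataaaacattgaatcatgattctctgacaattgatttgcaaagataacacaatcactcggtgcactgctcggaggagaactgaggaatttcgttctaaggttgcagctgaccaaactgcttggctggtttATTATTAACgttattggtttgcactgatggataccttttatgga
Cubn chr2:13296358-13296657: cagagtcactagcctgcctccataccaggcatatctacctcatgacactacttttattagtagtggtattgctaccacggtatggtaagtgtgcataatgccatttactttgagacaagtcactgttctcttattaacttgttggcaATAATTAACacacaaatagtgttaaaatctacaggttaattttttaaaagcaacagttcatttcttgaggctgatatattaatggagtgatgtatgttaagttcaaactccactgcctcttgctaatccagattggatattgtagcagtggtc
Lrp2 chr2:69448700-69448999: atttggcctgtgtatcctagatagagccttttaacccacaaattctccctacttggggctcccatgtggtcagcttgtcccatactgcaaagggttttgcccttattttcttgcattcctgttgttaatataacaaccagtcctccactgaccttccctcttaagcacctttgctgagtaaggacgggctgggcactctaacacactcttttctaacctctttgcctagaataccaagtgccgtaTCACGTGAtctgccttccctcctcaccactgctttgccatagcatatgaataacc
Lrp2 chr2:69570752-69571051: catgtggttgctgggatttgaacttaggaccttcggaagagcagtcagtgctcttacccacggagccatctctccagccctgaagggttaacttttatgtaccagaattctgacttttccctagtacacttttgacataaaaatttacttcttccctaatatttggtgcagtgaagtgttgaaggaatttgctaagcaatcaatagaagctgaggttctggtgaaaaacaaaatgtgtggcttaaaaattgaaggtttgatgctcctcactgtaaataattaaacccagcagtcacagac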

How the data were processed

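Kidneys were profiled by snATAC-seq, 2 P0, 1 P21 and 2 P56 samples. Per the labels and the study's methods, the authors aligned reads to mm10 with Cell Ranger ATAC 1.1.0, called peaks with MACS2 per cell type on nuclei pooled over samples, clustered nuclei, and deposited a matrix of counts of 0 or 1 (open in a nucleus or not), so a count here counts nuclei and not fragments. The authors' clusters PT and PT2 were read as PCT and PST from the study's text, as no label pairs them. Bulk ATAC-seq and scRNA-seq values were not used here.

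Members and lists were chosen with earlier results of these data known. Counts were summed per sample and cell type (at least 20 nuclei), filtered with filterByExpr (minimum count 10, total 15) and scaled by TMM, and fitted over all peaks with edgeR 4.0.16 (quasi-likelihood), with stage for PCT and PST apart and sample as a block between types. The stage change of proximal against other types was an interaction term. The SE is the size of the log2 fold change over the square root of F. Gene level sums took all peaks in a gene's window. Named peaks were, per gene, the start peaks, the 2 most open in PCT away from a start and the largest change with stage in each direction, and peaks most open outside the proximal types (among them chr12:111275342-111276015, chr15:6416372-6417171 and chr11:73193269-73193607) were added after values were seen. On simulated data with 4-fold changes, 64% of 200 changed peaks were recovered for PCT and 67.5% for PST. The simulation gave every peak the same preset dispersion, not taken from the data, so the recovery holds for that setting. Alternatives were DESeq2 1.42.0, RLE scaling, no filter, at least 50 nuclei, thinning to 1000 open peaks, equal nuclei, no sample block, a replicate block, other windows, and leaving out each sample. Python 3.11.15 and R 4.3.3 were used, sequences came from GRCm38.p6, and 0 value columns belonged to other series. For Ctns, 1 of the genes most like it is not reported here.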

Additional observations from a re-analysis of the deposited data

Results flagged for a closer look

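The changes of 8 member peaks with stage differed between the proximal types and the 11 others by an interaction term (edgeR, adjusted p under 0.05). All values are log2, proximal minus other types, and are to be read against the median of all peaks, 0.50 with TMM, -0.029 with RLE and -0.29 with DESeq2. The downstream Dab2 start had 1.29 ± 0.18 with TMM, 0.72 with RLE and 0.71 with DESeq2. For the Dab2 intron peak chr15:6374818-6375627 the values were -1.48 ± 0.49 with TMM, -2.18 with RLE and -1.63 with DESeq2, and for chr15:6406756-6407320 they were -1.30 ± 0.45 with TMM, -1.92 with RLE and -1.69 with DESeq2. The Lrp2 intron peak chr2:69448484-69449214 had -2.52 ± 0.59 with TMM, -3.26 with RLE and -2.34 with DESeq2, and lost the call without P0 replicate 2 and without P56 replicate 2. At the Amn exon peak chr12:111275342-111276015 the term was 2.55 ± 0.61 with TMM, 2.09 with RLE and 1.44 with DESeq2, past the threshold with RLE and not with DESeq2. The downstream Clcn5 start had 1.11 ± 0.27 with TMM, 0.54 with RLE and 0.54 with DESeq2, and the Ctns start 0.74 ± 0.13 with TMM, 0.16 with RLE and 0.16 with DESeq2, and both missed the threshold with RLE and DESeq2. The upstream Clcn5 start had 0.55 ± 0.17 with TMM, -0.046 with RLE and -0.046 with DESeq2, so its sign turned with the scaling.

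Member starts were open above the level that a count of 0 allows in the 2 clusters left out of the 13 types, for the 6 genes in PT_out and for 4 of them in NP_LOH. PT_out had 157 nuclei at P0 and 289 in adult, and the Lrp2 start was open in 29.9% (23.3 to 37.5) at P0 and 34.6% (29.4 to 40.3) in adult (Wilson 95% intervals, which cover counting error only). For Cubn the shares were 14.6% (9.96 to 21) at P0 and 14.5% (10.9 to 19.1) in adult, and for Amn 24.8% (18.7 to 32.1) at P0 and 14.9% (11.2 to 19.4) in adult. The downstream Dab2 start was open in 15.9% (11 to 22.5) at P0 and 20.4% (16.2 to 25.4) in adult, the upstream Clcn5 start in 26.1% (19.9 to 33.5) at P0 and 23.2% (18.7 to 28.4) in adult, and the Ctns start in 28.7% (22.2 to 36.2) at P0 and 35.6% (30.3 to 41.3) in adult. NP_LOH had 217 adult nuclei, of which 1.84% had the Lrp2 start open, 4.15% the downstream Dab2 start, 9.22% the upstream Clcn5 start and 16.1% the Ctns start. There the Cubn start was open in 0 nuclei (which allows up to 1.38%) and the Amn start in 1.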

How the results depend on the processing

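Thinning each nucleus to 1000 open peaks, which also leaves fewer calls to test, gave counts of 4 that rose and 1 that fell in adult PCT, 0 and 0 in PST, 3 higher in the proximal types at P0 and 2 in adult, 0 with a larger adult gain there, 6 higher in PCT and 1 in PST, and 1 gene level call. With equal numbers of nuclei the PST counts were 0 and 0, those of the proximal types 16 and 7, the larger gain 1, and the segments 11 and 3. With no filter, which tests more peaks, they were 33 and 2 in PCT, 13 and 0 in PST, 132 in the adult proximal types and 3 higher in PST, and a minimum of 50 nuclei gave 42 in the adult proximal types. DESeq2 gave 2 that fell in PCT, 2 with the larger gain and 28 higher in PCT, and RLE scaling 2 with the larger gain. The share of adult proximal calls that were higher was 58% with TMM, 68.2% with RLE and 51.8% with DESeq2. The cause of these shifts was not tested beyond the number of peaks and nuclei each setting keeps.

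Leaving out 1 sample at a time gave 8 to 29 peaks that rose and 2 to 5 that fell in PCT, 0 to 1 and 0 to 1 in PST, 21 to 36 higher in the adult proximal types, 1 to 5 with the larger gain, 29 to 44 higher in PCT, 4 to 6 in PST, and 0 to 5 gene level calls. The same left-out P0 samples could not be tried for the proximal types at P0, where no residual degrees of freedom remain, and the interaction without a filter was not run. Changes of starts and of gene sums outside PCT and PST were fitted once, with no alternative.

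The sign of 3 values past the threshold turned. The adult proximal contrast of the upstream Clcn5 start was 0.43 with no filter and 0.16 after thinning. That of the Ctns start was 0.030 with DESeq2, 0.030 with RLE, 0.66 with no filter, 0.29 with at least 50 nuclei, 0.081 after thinning, and -0.00014 to 0.047 with 1 adult sample left out. The interaction of the upstream Clcn5 start was -0.046 with DESeq2, -0.046 with RLE and -0.085 with equal numbers of nuclei. Among values that missed the threshold, the gene sums of Dab2 and Clcn5 in PST, both just below 0, were 0.036 and 0.019 with no filter, 0.16 and 0.46 after thinning, 0.018 and 0.024 with the replicate block, and -0.065 to 0.081 and -0.21 to 0.19 with 1 sample left out. In PCT, thinning turned the Amn start (-0.34), the upstream Clcn5 start (-0.056), the Clcn5 exon peak (-0.22) and the Amn intron peak (-0.20, and -0.028 with the block). The second Lrp2 start was -0.034 with equal numbers of nuclei and -0.078 with the block, and the restricted Ctns peak 0.12 with no filter. With 1 sample left out the second Lrp2 start ranged from -0.21 to 0.40, the Amn intron peak from -0.26 to 0.80 and the Clcn5 intron peak from -0.27 to 0.34. Of the alternative values for single peaks and genes, 591 kept their direction and their side of the threshold (or moved by less than 1 SD), 67 lost the call, 21 gained one, 12 moved and 36 turned. Of the counts, 78 stayed within 1.5 times and 50 did not.

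With the replicate number as a block (P0 against P56), 20 peaks rose and 6 fell in PCT, 1 and 1 in PST, and 5 gene level values passed, those of Lrp2, Cubn, Amn and Dab2 in PCT and Lrp2 in PST. Same-numbered samples deviated together at a correlation of 0.081 in PCT and 0.0475 in PST, over 2 pairs, so the numbers were not taken to pair the samples. The number of nuclei limits IC, DCT, Immune and PST at P0 most, where a share of 0 allows up to 3.12%, 2.78%, 1.92% and 1.54%.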
